A study of Mus musculus with 25 samples.

Results

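Oxidative phosphorylation is built from genes of 2 genomes, and the 117 genes described here, of 34866 in the deposited table, are those whose symbols name its subunits. They were chosen by symbol alone: the subunits of complexes I, III, IV and V written in mitochondrial DNA (symbols starting mt-Nd, mt-Co, mt-Atp or mt-Cytb) and nuclear symbols starting Ndufa, Ndufb, Ndufc, Ndufs, Ndufv, Uqcr, Cox4 to Cox8, Atp5, or Sdha to Sdhd, leaving out 5 of the 122 matches that carry a pseudogene suffix with a number. The set held all 13 mitochondrial-encoded subunits (7 of complex I, 1 of complex III, 3 of complex IV and 2 of complex V) and 104 nuclear genes. Of the nuclear genes, 83 are subunits (36 of complex I, 4 of complex II, 8 of complex III, 19 of complex IV and 16 of complex V), 14 are assembly or regulatory factors that share the symbol stems, and 7 are annotated as pseudogenes.

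RNA was sequenced from mammary gland organoids of mice in which Brca1 and P53 were deleted. The study asked how cabergoline, a dopamine D2 receptor agonist that lowers prolactin and stops milk production, acts on involution, the regression of the gland after weaning. There were 5 groups of 5 libraries: multiparous mice 1 day after weaning, either untreated or given cabergoline (0.2 mg/kg by the labels) on the day of the second weaning, multiparous mice with and without cabergoline at 60 days, and untreated nulliparous mice matched in age with the 60-day mice. All groups carried the same deletions, which come from a Cre recombinase driven by the keratin 14 promoter, so only part of the mammary cells are recombined and no group without the deletions was sequenced. The 1-day mice were 1 set of animals, and the 60-day and nulliparous mice another, so time after weaning and set of animals cannot be told apart. The labels number the libraries of a group from 1 to 5 and do not name the animals, so p-values measure the spread between these libraries. Each library was made from total RNA after removal of ribosomal RNA, which keeps RNA with and without a poly(A) tail.

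Complex I (NADH dehydrogenase), complex III (cytochrome bc1) and complex IV (cytochrome c oxidase) pump protons across the inner mitochondrial membrane as electrons pass from NADH to oxygen, complex II (succinate dehydrogenase) feeds in electrons from succinate, and complex V (ATP synthase) uses the gradient to make ATP. The mitochondrial genome encodes the hydrophobic cores of complexes I, III, IV and V as long precursor RNAs from both strands, cut into messenger RNAs, while complex II and all remaining subunits come from the nucleus and are imported. The lactating mammary epithelium is rich in mitochondria, whereas skeletal muscle and brown fat, both of which can lie next to a dissected mammary gland, use their own isoforms of several complex IV subunits.

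Values are TPM (transcript levels per length, scaled to a fixed total), which sum to 1000000 in each library, so a gene's TPM depends on everything else in that library. In the 10 libraries of 1 day a single non-coding transcript, Gm12895, took 279643 to 568415 TPM, against 0 to 104615 in the other 15, and summed milk protein genes (Wap, Csn2 and Csn1s1 the highest) reached 350141 TPM. Untreated 1-day replicate 3 had milk genes at only 2227 TPM, and untreated 60-day replicate 2 had them at 62057 TPM, far above the 417 to 4326 TPM of the other 60-day and nulliparous libraries. Mammary epithelial markers (Acta2, Krt19 and Krt18 the highest of 20) summed to 89.9 to 5515 TPM, so the epithelial label held to very different degrees, and T cell markers ranged from 7.88 to 4157 TPM. Skeletal muscle markers (Acta1, Ckm, Atp2a1 and 17 others) exceeded 10000 TPM in 4 libraries: untreated 60-day replicates 3 and 4, cabergoline 60-day replicate 3 and untreated 1-day replicate 3. In a bulk library, fewer cells of a type and less RNA per cell cannot be told apart. Depth is unknown because TPM keeps no read counts.

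The 13 mitochondrial-encoded subunits together took between 1.10% and 39.8% of all TPM. In nulliparous mice they took 39.8%, 2.14%, 4.24%, 15.3% and 3.16%. In untreated mice they took 2.71%, 2.91%, 23.8%, 12.5% and 1.52% at 60 days and 1.10%, 2.32%, 6.39%, 1.17% and 1.73% at 1 day. In cabergoline-treated mice the shares were 5.21%, 9.95%, 13.3%, 11.5% and 3.74% at 60 days and 1.27%, 2.05%, 2.60%, 1.79% and 1.36% at 1 day. Both cabergoline groups were separated, with every 60-day library above every 1-day library, while the untreated groups and the nulliparous group overlapped, and nulliparous replicate 1 stood far above the rest. These shares are of TPM as deposited, on which the median of all genes was also higher at 60 days, as given below. With scaling, the median log2 fold change of these 13 genes between the cabergoline groups was -0.08. The 104 nuclear genes together summed to 4486 to 10590 TPM in nulliparous mice, 7141 to 19145 and 5432 to 15798 TPM at 60 days without and with cabergoline, and 2371 to 6443 and 3251 to 4853 TPM at 1 day. The highest nuclear sum in each multiparous 60-day group and in the untreated 1-day group came from a library with over 10000 TPM of muscle markers.

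The ratio of the 2 genomes' sums needs no scaling between libraries, since both sums come from the same library. On the log2 scale the mitochondrial to nuclear ratio was 3.21 ± 2.16 in nulliparous mice, 2.32 ± 1.26 in untreated and 3.20 ± 0.79 in cabergoline-treated mice at 60 days, and 2.63 ± 0.46 and 2.09 ± 0.45 at 1 day (mean ± SD, n = 5 each). The nulliparous ratios ran from 1.45 to 6.47, those of the 60-day groups from 1.01 to 4.29 and from 2.34 to 4.41, and those of the 1-day groups from 2.21 to 3.31 and from 1.65 to 2.85. All 5 ranges overlapped. These sums leave out nuclear copies of mitochondrial genes on chromosome 1, described below. With the copies added, the nulliparous ratios ran from 1.53 to 6.575. Those of the 60-day groups then ran from 1.09 to 4.39 and from 2.42 to 4.53. The 1-day ratios rose to 2.59 to 3.63 and 2.02 to 3.21, and all ranges still overlapped. In the plot of sums by library the medians of the 1-day groups are the lowest in both sums, and not in their ratio.

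**Figure D1:**
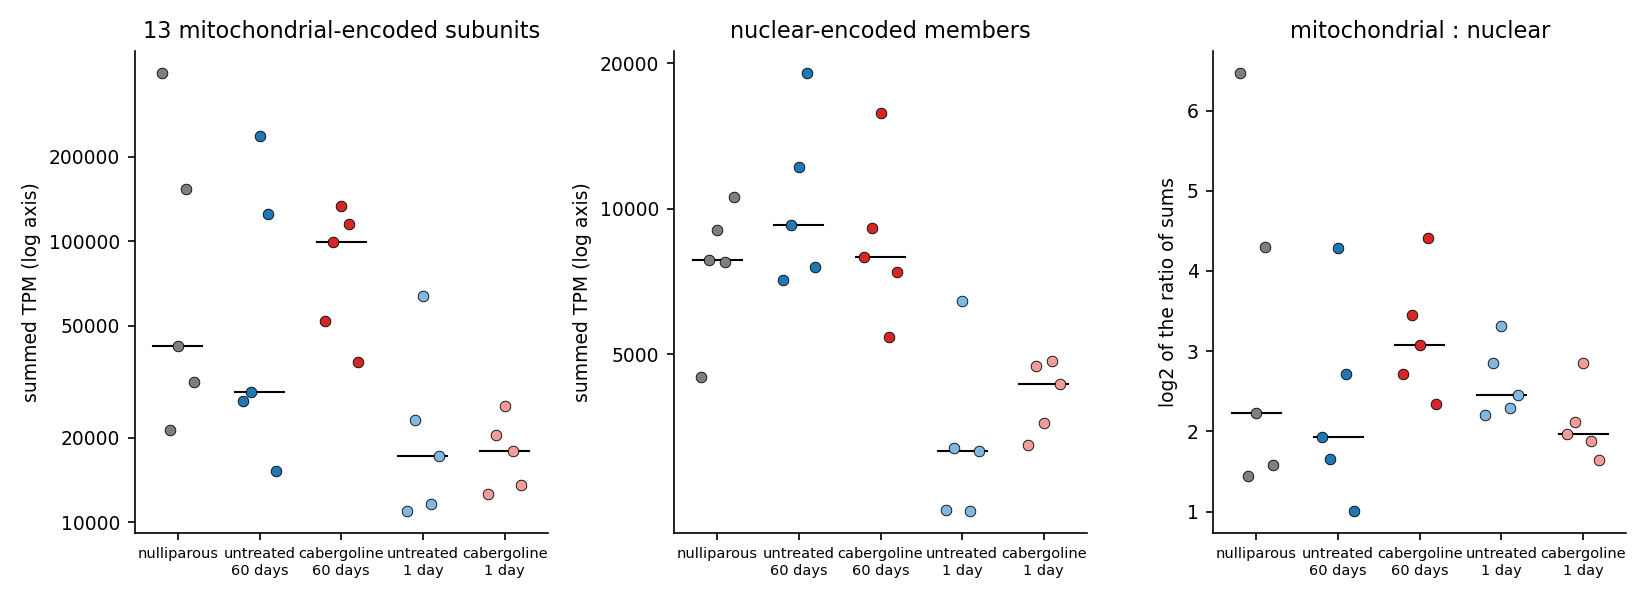
Summed TPM of the 13 mitochondrial-encoded subunits (left, log axis), of the 104 nuclear genes (middle, log axis) and the log2 ratio of these sums (right), each point a library and each line a group median. The ratio spans 1.01 to 6.47 and its ranges overlap between all 5 groups.

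Among the mitochondrial transcripts, mt-Co1 (the catalytic subunit of complex IV) had the highest mean level over the 25 libraries, 22348 TPM, followed by mt-Co3 (10137), mt-Nd6 (9702) and mt-Nd4l (6619). The remaining members averaged 3896 TPM for mt-Atp6, 3887 for mt-Nd5, 2857 for mt-Nd4, 2570 for mt-Nd1, 1955 for mt-Cytb, 1631 for mt-Nd3, 1456 for mt-Nd2, 1339 for mt-Atp8 and 1054 for mt-Co2. Each neighbouring pair in this order overlapped in range, since single genes varied widely (mt-Co1 from 1855 to 89161 TPM). The levels are per length, but 2 pairs of these genes overlap in sequence on the same strand (mt-Atp8 with mt-Atp6, mt-Nd4l with mt-Nd4), and reads in the shared bases cannot be told apart.

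The low place of mt-Co2 goes with a nuclear copy. Chromosome 1 carries a stretch of mitochondrial sequence whose pieces are annotated as unprocessed pseudogenes, and the deposited table gives these copies values of their own. mt-Co2 lies at chrM:7013-7696 on the plus strand and its copy Gm28661 at chr1:24614885-24615565 on the minus strand (GRCm38, GENCODE transcripts), and all 681 aligned bases were identical. The start and end of both transcripts are shown because a read from inside them fits either gene. Capitals mark the 3 bases of mt-Co2, a stop codon, that lie past the end of the copy as annotated.
mt-Co2, first 60 bases: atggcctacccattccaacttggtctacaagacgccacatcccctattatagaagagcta
Gm28661, first 60 bases: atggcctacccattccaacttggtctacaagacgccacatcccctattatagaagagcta
mt-Co2, last 33 bases: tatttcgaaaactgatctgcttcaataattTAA
Gm28661, last 30 bases: tatttcgaaaactgatctgcttcaataatt
The copies of mt-Co3 (Gm28437, 783 of 783 bases) and mt-Atp6 (Gm10925, 678 of 678 bases) were also identical. The mt-Nd3 copy Gm28438 had 344 of 345 bases in common, differing by T3C, with positions counted from the first base of mt-Nd3 and the base in capitals.
mt-Nd3, first 40 bases: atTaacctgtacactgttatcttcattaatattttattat
Gm28438, first 40 bases: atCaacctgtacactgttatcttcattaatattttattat

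The copy of mt-Co2 was listed above the mitochondrial gene itself in 22 of the 25 libraries. Gm28661 held 82.7%, 57.5%, 66.9%, 63.5% and 36.0% of the pair's TPM in nulliparous mice. It held 68.9%, 2.45%, 83.1%, 82.7% and 66.0% in untreated and 76.2%, 66.0%, 74.0%, 0.00111% and 66.9% in cabergoline-treated mice at 60 days. At 1 day it held 88.1%, 83.0%, 83.5%, 68.6% and 82.3% without and 89.5%, 78.8%, 85.2%, 81.2% and 81.5% with cabergoline. Untreated replicate 2 and cabergoline replicate 4 at 60 days, where the share fell to nearly nothing, stood apart from all other libraries, although their transcripts have the same sequence. Levels of mt-Co2, mt-Co3, mt-Atp6 and mt-Nd3 on their own are therefore uncertain. The same holds for mt-Nd4 and mt-Nd4l, which share most of their sequence with chromosome 1 copies. The pair mt-Co2 plus copy ranged from 904 to 14234 TPM.

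**Figure D2:**
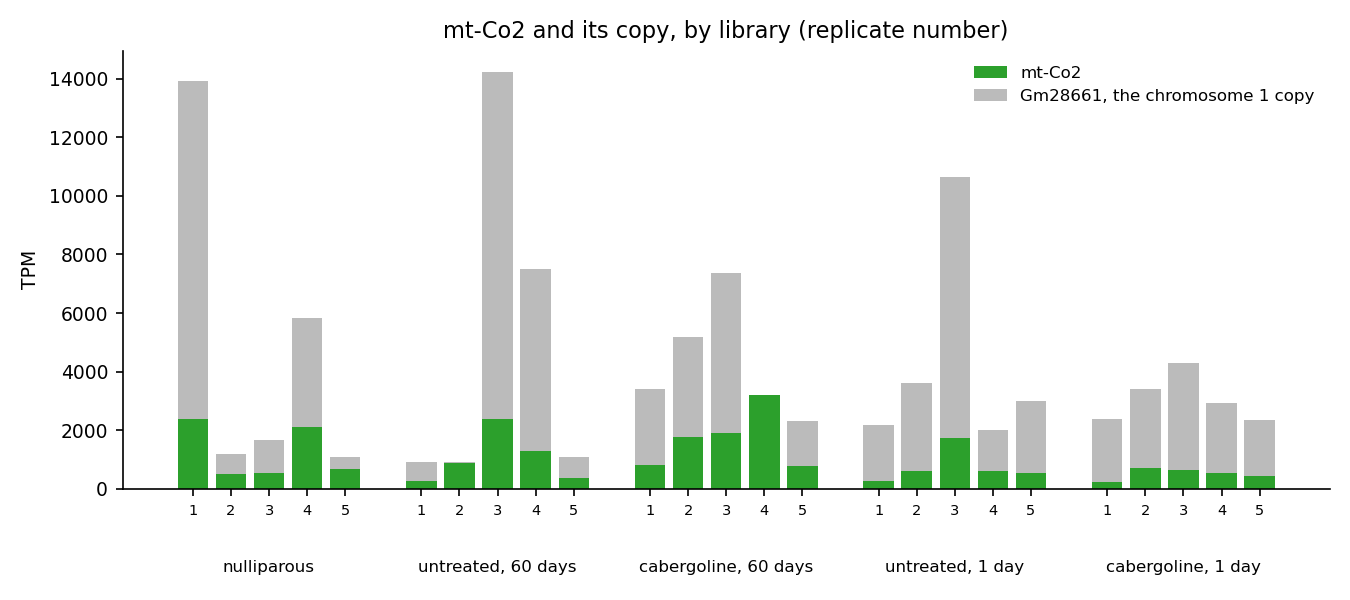
Stacked TPM of mt-Co2 (green) and its chromosome 1 copy Gm28661 (grey) in each of the 25 libraries, by group and replicate number. The copy takes most of the pair in 22 libraries and nearly none in untreated replicate 2 and cabergoline replicate 4 at 60 days.

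Other copies were divided between the sets of animals. Gm29216, the copy of mt-Co1, was at 535 to 3536 TPM in the 10 libraries of 1 day and at 0 to 8.63 TPM in the other 15, and Gm10925 was at 445 to 993 against 0 to 233 TPM. Gm28439, the copy of mt-Nd4, went the other way, at 0 in every 1-day library and at 413 to 9243 TPM in nulliparous mice, but 6 of the 10 libraries of 60 days were also at 0. Gm29216 and Gm10925 did not overlap between the 1-day libraries and the others.

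The composition of the mitochondrial transcripts separated the 2 sets of animals, with or without cabergoline. mt-Nd6, a complex I subunit, is the only member read from the opposite strand of mitochondrial DNA (chrM:13552-14070, minus strand), and mt-Nd1, another complex I subunit, is on the plus strand (chrM:2751-3707) and shares no 31-base word with another gene. The ratio of mt-Nd6 to mt-Nd1 in TPM was 6.79, 4.39, 9.08, 4.33 and 5.58 in nulliparous mice. At 60 days it was 15.9, 9.41, 3.58, 3.21 and 2.19 in untreated and 4.75, 3.41, 1.86, 5.50 and 2.27 in cabergoline-treated mice. At 1 day it was 0.586, 0.678, 0.652, 0.500 and 0.533 in untreated and 0.491, 0.599, 0.547, 0.557 and 0.641 in cabergoline-treated mice. Thus the highest 1-day ratio, 0.678, lay below the lowest of the other 15 libraries, 1.86, and the untreated and treated groups of 1 time overlapped.

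Other ratios to mt-Nd1 split the same way, but their common denominator itself differed. mt-Nd1 made up 6.80% to 9.14% of the summed mitochondrial TPM at 1 day and 1.88% to 4.485% in the other 15 libraries. As such a share, mt-Nd6 stayed lower at 1 day (4.05% to 5.47% against 5.55% to 35.45%). The mt-Nd4 share was higher (5.83% to 6.32% against 2.73% to 4.94%), and those of mt-Nd5, mt-Co1 and mt-Co3 overlapped. These shares leave out the chromosome 1 copies. mt-Nd4 shares most of its sequence with Gm28439, which had TPM in nulliparous and some 60-day libraries but in no 1-day library. The part of this copy in the mt-Nd4 difference was not tested. The mt-Nd5 ratio was 0.341 to 0.520 at 1 day and 0.918 to 3.95 in the other 15 libraries, the mt-Co1 ratio 1.74 to 3.23 against 6.08 to 24.2, the mt-Co3 ratio 1.40 to 2.09 against 2.96 to 7.27 and the mt-Nd4 ratio 0.667 to 0.904 against 0.981 to 1.52. With its chromosome 1 copy added, the mt-Co1 ratio was 2.33 to 3.62 at 1 day, still below 6.08. The ratios of mt-Atp6 (0.644 to 1.27 against 1.08 to 1.95), mt-Nd2 (0.382 to 0.559 against 0.412 to 1.37) and mt-Cytb (0.702 to 0.863 against 0.538 to 0.974) overlapped. mt-Nd5 ends inside mt-Nd6 on the opposite strand (chrM:13552-13565), the strand setting of the quantification is not given in the sources used here, and its part in these ratios was not tested. The nulliparous libraries, of mice that had not lactated, lay with the 60-day ones.

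**Figure D3:**
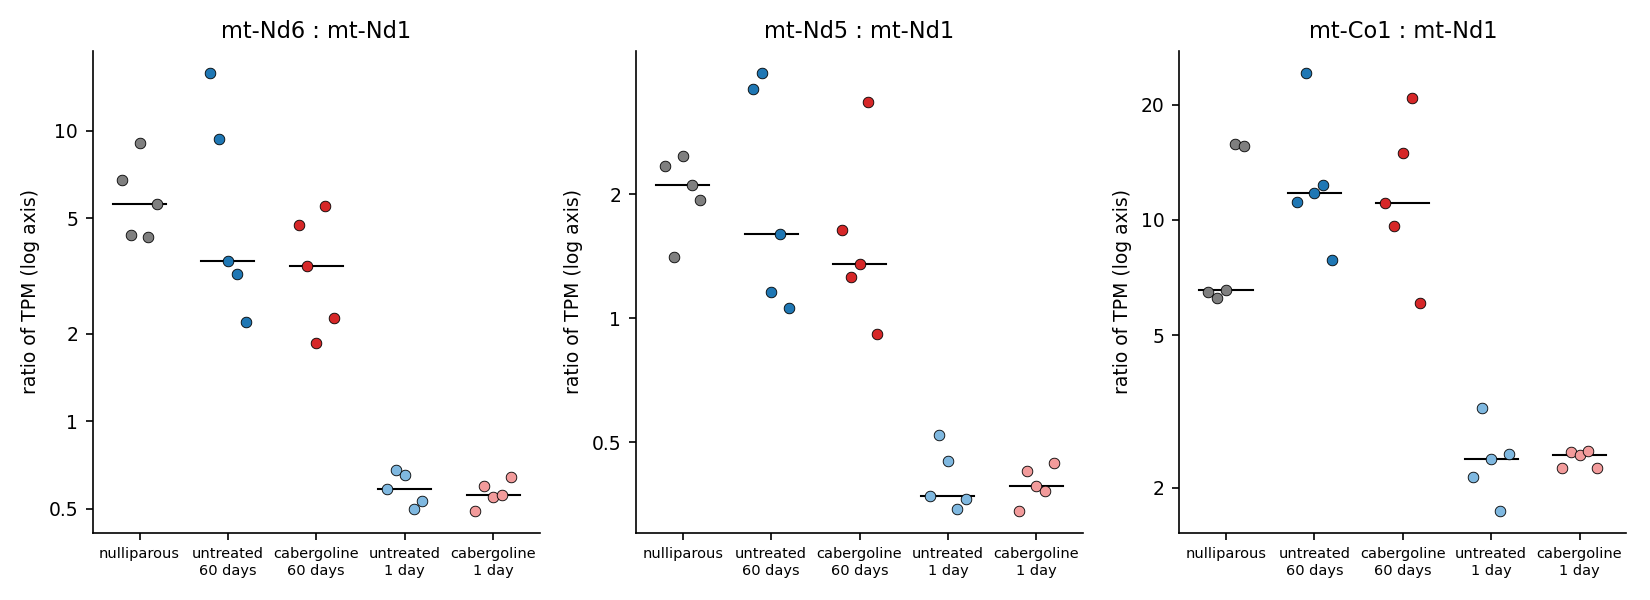
TPM of mt-Nd6 (left), mt-Nd5 (middle) and mt-Co1 (right) divided by that of mt-Nd1 in each library (log axes), with a line at each group median. In all 3 panels the 10 libraries of 1 day lie below the other 15, for mt-Nd6 at 0.491 to 0.678 against 1.86 to 15.9.

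Each nuclear-encoded subunit averaged less than the lowest mitochondrial one, mt-Co2. Atp5b, the catalytic beta subunit of ATP synthase, was the highest at a mean of 601 TPM (177 to 2220). Atp5a1, the alpha subunit, averaged 299 TPM (47.9 to 1046). In complex IV, Cox4i1 and Cox8a, the widely expressed isoforms of their subunits, averaged 291 and 241 TPM. In complex III, Uqcrh (hinge protein) and Uqcrc1 (a core protein) averaged 154 and 145 TPM. In complex II, Sdha (the flavoprotein) and Sdhb (the iron-sulfur protein) averaged 150 and 102 TPM, and in complex I, Ndufa7 averaged 103 TPM. Neighbours in this order overlapped in range throughout. Of the 83 nuclear subunits, 65 had at least 1 TPM in all 25 libraries, whereas Cox8c, the testis isoform, reached 1 TPM in none and Cox7b2 in 7. Other isoforms of restricted expression were also low, Cox4i2 at a mean of 4.36 TPM, Cox6b2 at 2.07 TPM and Ndufa4l2 at 6.06 TPM. Of the 3 genes that encode the same mature c-ring subunit of ATP synthase, Atp5g3 averaged 118 TPM, Atp5g1 92.7 TPM and Atp5g2 19.5 TPM, with overlapping ranges.

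The highest levels of the isoforms of muscle and brown fat mostly followed the muscle markers and not the groups. Cox6a2, the heart and skeletal muscle form of subunit 6a, was at 10.97, 3.92, 19.1, 3.596 and 2.61 TPM in nulliparous mice. At 60 days it was at 4.45, 5.84, 41.3, 153 and 2.46 TPM in untreated and 8.17, 25.7, 107, 15.6 and 0.890 TPM in cabergoline-treated mice. At 1 day it was at 0, 4.62, 48.7, 0 and 12.5 TPM in untreated and 9.23, 1.10, 1.69, 0.350 and 1.05 TPM in cabergoline-treated mice. The 4 highest values were those of the 4 libraries with over 10000 TPM of muscle markers (41.3 to 153 against 0 to 25.7 TPM elsewhere). Cox8b behaved alike (81.5 to 266 against 0 to 40.1 TPM). For Cox7a1, 3 of the 4 highest values came from these libraries, the fourth being cabergoline 60-day replicate 4 at 70.3 TPM.

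Of their partners found in most tissues, Cox6a1 and Cox8a had 0 of their 4 highest values in the muscle-rich libraries, but Cox7a2 had 3 of 4, as many as Cox7a1. In untreated 60-day replicate 4, Cox6a2 made up 61.7% of the Cox6a pair. Within the untreated 60-day, cabergoline 60-day and untreated 1-day groups, Cox6a2 and Cox8b were highest in muscle-rich libraries. Cabergoline 60-day replicate 4, with 2224 TPM of muscle markers, had Cox7a1 at 70.3 TPM and Cox8b at 0 TPM. None of Cox6a2, Cox7a1 and Cox8b was called by limma in any comparison.

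**Figure D4:**
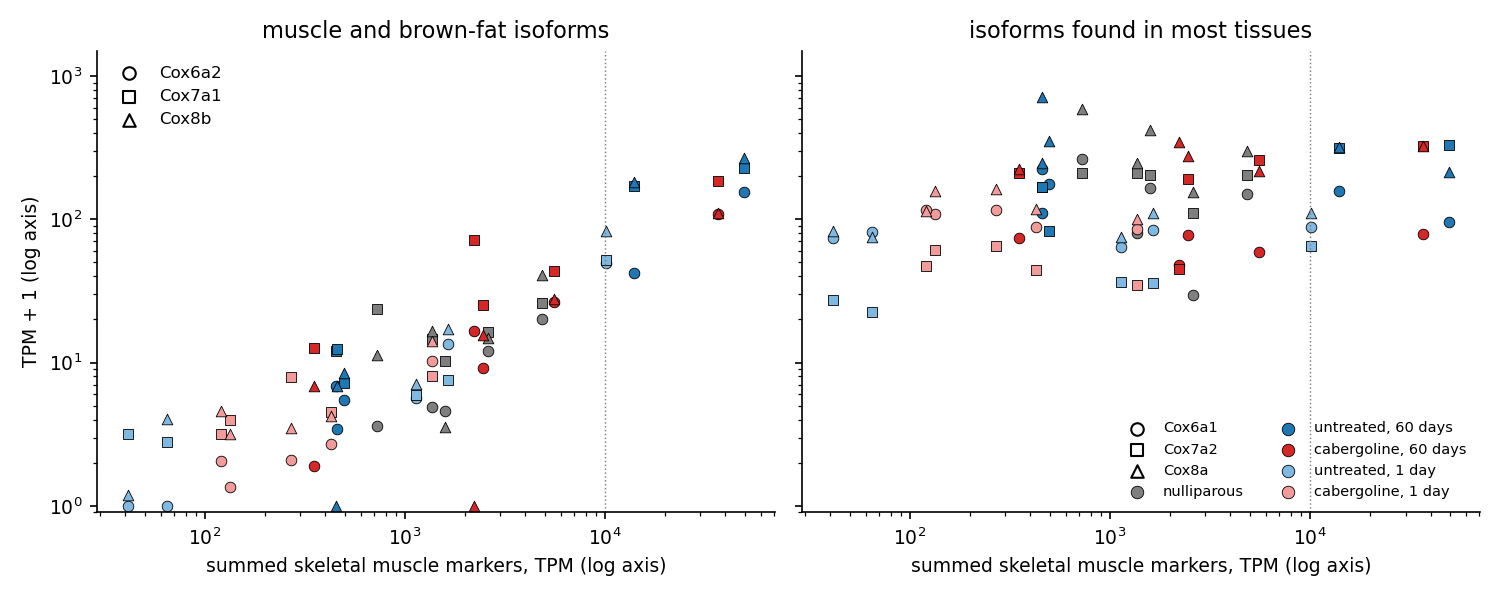
TPM plus 1 of the muscle and brown fat isoforms Cox6a2, Cox7a1 and Cox8b (left) and of their widely expressed partners Cox6a1, Cox7a2 and Cox8a (right) against the summed skeletal muscle markers (log axes), 25 libraries coloured by group, with a dotted line at 10000 TPM. The 4 libraries right of the line hold the 4 highest values of Cox6a2 and of Cox8b, and of neither Cox6a1 nor Cox8a.

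RefSeq start sites (GRCm38.p6) gave a promoter for 80 of the 104 nuclear genes and 67 of the 83 subunits, and the 250 bases upstream were searched on both strands for the palindromic motif of nuclear respiratory factor 1 (NRF1), for CCGGAAG, bound by ETS factors, for GGGCGG, bound by Sp1, for CAGCTG, an E-box, for ATGGCGG, for TATAAA and for the MEF2 motif. The NRF1 motif was found in 12 of 67 subunit promoters (17.9%) and in 3.86% of all 27025 promoters, and CCGGAAG in 11 (16.4%) against 7.05%. GGGCGG was in 35.8% against 32.9%, CAGCTG in 8.96% against 12.8%, ATGGCGG in 4.48% against 2.19%, TATAAA in 8.96% against 13%, and the MEF2 motif in 0 subunit promoters against 0.518%. Shown are the promoters of Cox6a1, Cox7a2 and Cox8a, the widely expressed isoforms, of Cox8b and Cox7a1, the muscle and brown fat forms, and of Ndufb7, the member with the smallest adjusted p between times, with matches of these motifs other than ATGGCGG and TATAAA in capitals. A match describes letters only and shows no binding.
Cox6a1, chr5:115348959-115349208, minus strand: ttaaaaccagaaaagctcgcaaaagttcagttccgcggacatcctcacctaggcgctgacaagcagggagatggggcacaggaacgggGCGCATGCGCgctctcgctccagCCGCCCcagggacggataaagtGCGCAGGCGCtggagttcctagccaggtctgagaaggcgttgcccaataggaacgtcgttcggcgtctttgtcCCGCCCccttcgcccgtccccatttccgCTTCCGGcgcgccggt
Cox7a2, chr9:79759854-79760103, minus strand: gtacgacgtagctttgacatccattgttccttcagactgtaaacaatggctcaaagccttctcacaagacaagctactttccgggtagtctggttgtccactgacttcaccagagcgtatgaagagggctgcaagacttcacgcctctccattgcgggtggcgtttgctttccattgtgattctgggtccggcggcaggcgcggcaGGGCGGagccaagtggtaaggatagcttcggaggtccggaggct
Cox8a, chr19:7217617-7217866, minus strand: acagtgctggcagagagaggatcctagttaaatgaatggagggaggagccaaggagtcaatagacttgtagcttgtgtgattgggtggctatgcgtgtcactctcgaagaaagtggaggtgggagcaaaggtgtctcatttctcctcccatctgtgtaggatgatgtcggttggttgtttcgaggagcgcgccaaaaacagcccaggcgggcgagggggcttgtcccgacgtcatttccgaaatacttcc
Cox8b, chr7:140900447-140900696, minus strand: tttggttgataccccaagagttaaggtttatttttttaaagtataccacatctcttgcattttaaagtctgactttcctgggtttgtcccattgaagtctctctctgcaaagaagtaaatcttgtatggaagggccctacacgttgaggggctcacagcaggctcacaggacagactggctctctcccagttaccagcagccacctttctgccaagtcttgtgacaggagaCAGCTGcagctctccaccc
Cox7a1, chr7:30183921-30184170, plus strand: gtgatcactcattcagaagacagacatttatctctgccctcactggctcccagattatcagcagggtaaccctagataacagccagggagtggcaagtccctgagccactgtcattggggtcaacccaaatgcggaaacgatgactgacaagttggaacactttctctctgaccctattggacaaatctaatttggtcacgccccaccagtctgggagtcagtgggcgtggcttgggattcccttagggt
Ndufb7, chr8:83566508-83566757, plus strand: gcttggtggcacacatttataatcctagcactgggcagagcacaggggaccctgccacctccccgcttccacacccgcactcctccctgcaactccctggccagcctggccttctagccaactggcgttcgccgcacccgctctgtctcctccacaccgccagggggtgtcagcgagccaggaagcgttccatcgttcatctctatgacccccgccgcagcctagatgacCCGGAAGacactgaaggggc
The Cox6a1 promoter held the NRF1 motif at 2 places, the GGGCGG motif at 2 and CCGGAAG at 1, the Cox8b promoter held 1 CAGCTG, the Ndufb7 promoter 1 CCGGAAG, the Cox7a2 promoter 1 GGGCGG, and the Cox8a and Cox7a1 promoters none of these 5.

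The first comparison asked whether cabergoline changed these genes 1 day after weaning. Here and in what follows, fold changes are on the scale of log2(TPM divided by a library scaling factor, plus 1), and limma with Benjamini-Hochberg adjustment over all genes tested called a gene at an adjusted p of 0.05 or less. None of 108 members tested was called (0% of 14733 genes), and 5 had an unadjusted p of 0.05 or less, all lower (4.63%, against 1.95% of all genes). These were mt-Atp8 (-0.95 ± 0.31, mean ± SE, unadjusted p = 0.0132, adjusted p = 1), mt-Co2, mt-Nd6, mt-Nd5 and Ndufa12, an accessory subunit of complex I. All 13 mitochondrial-encoded subunits had negative fold changes, with a median of -0.62, against -0.05 for the nuclear genes and 0.02 for all genes. Untreated replicate 3, with its muscle markers over 10000 TPM, held the highest deposited level of mt-Nd1 and mt-Nd6 of both groups, and without it the mitochondrial median was -0.48.

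At 60 days the mitochondrial- and nuclear-encoded genes had medians of opposite sign, and no member passed the test. None of 109 members was called (0% of 17644 genes), and 2 had an unadjusted p of 0.05 or less (1.83%, against 1.17% of all genes), both lower with cabergoline: Cox6a1 and Uqcr11, a small subunit of complex III (-1.59). Cox6a1 was at 176, 222, 157, 95.1 and 109 TPM without and 76.3, 57.7, 78.4, 47.3 and 73.3 TPM with cabergoline. These values did not overlap, but the nulliparous libraries, from 28.7 to 262 TPM, covered both groups, and limma gave -1.24 ± 0.27 with an adjusted p of 1.00 (unadjusted p = 0.000782). The median over the mitochondrial-encoded subunits was 0.61, with 12 of 13 positive, over the nuclear genes -0.33 and over all genes -0.02. Without the 3 muscle-rich libraries the mitochondrial median rose to 1.69 and the nuclear one was -0.02.

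Against nulliparous mice, untreated multiparous mice at 60 days had nuclear-encoded values mostly above and mitochondrial-encoded values below, again with no call. None of 109 members was called (0% of 17960 genes), and 12 had an unadjusted p of 0.05 or less (11.01%, against 2.46% of all genes), all nuclear subunits and all higher: Ndufa2, Ndufb10, Ndufb4, Ndufb7, Ndufv1, Ndufv3, Sdhd, Uqcr11, Uqcrc1, Uqcrq, Cox4i1 and Atp5d, by 0.49 to 1.27. The median was 0.43 over the nuclear genes (85 of 96 positive), -0.39 over the mitochondrial ones (0 of 13 positive) and -0.03 over all genes. Without both muscle-rich replicates 3 and 4 the nuclear median was -0.06, while it stayed at 0.23 to 0.60 with any single library left out. Without nulliparous replicate 1 the mitochondrial median was 0.38. In the same comparison all 20 mammary epithelial markers (median -2.34), 11 macrophage markers (-0.51) and 10 fibroblast markers (-0.60) had negative fold changes and 18 of 20 muscle markers positive ones (0.46), none of them called by limma (4 epithelial markers and 0 of the others at an unadjusted p of 0.05 or less), and their part in the members' values was not tested.

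Cabergoline-treated mice at 60 days were compared with the same nulliparous libraries. None of 110 members was called (0% of 18077 genes), and 3 had an unadjusted p of 0.05 or less (2.73%, against 4.86% of all genes): Ndufa1 (0.72) of complex I, Cox7b (0.55) of complex IV and Ndufaf2 (1.195), an assembly factor whose gene overlaps another on the opposite strand. Ndufaf2 had its highest level of all libraries, 109.7 TPM, in cabergoline 60-day replicate 4, against a mean of 13.3 TPM. The medians were 0.25 for mitochondrial-encoded, 0.09 for nuclear and -0.05 for all genes. The test of whether the cabergoline effect differed between the times called 0 of 18232 genes (0%, with 1.4% at an unadjusted p of 0.05 or less), and among the members 1 had such a p, Cox6a1 (-1.19).

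The comparison of 60 days with 1 day in untreated mice asked how these genes stood after involution was complete. At 60 days, 6 of 109 members were called lower (5.5%, against 0.883% of 16312 genes) and 0 higher (against 0.325%), with 29 members lower (against 9.05% of all genes) and 7 higher (against 11.3%) at an unadjusted p of 0.05 or less. Those called were Ndufb7, Ndufa2, Ndufa13 and Ndufv3 of complex I, Cox5b of complex IV and Atp5j2, subunit f of the membrane part of ATP synthase, all nuclear subunits. Ndufb7, an accessory subunit of complex I, was at 12.7, 12.6, 15.4, 25.8 and 15.1 scaled TPM at 60 days and at 62.8, 41.5, 56.3, 66.4 and 81.1 at 1 day. The groups did not overlap, and limma gave -1.87 ± 0.24 with an adjusted p of 0.0089. Atp5j2 was at 19.9, 4.04, 17.4, 24.5 and 15.8 scaled TPM at 60 days and at 74.0, 48.6, 68.8, 81.9 and 109 at 1 day (-2.30 ± 0.42, adjusted p = 0.0315).

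In cabergoline-treated mice the same comparison called more genes throughout the table. Of 109 members, 22 were called lower (20.2%, against 12.2% of 16457 genes) and 2 higher (1.83%, against 9.14%). The 22 were 21 nuclear subunits and the assembly factor Ndufaf8 (-0.66). By complex, 11 of 36 tested subunits of complex I, 0 of 4 of complex II, 3 of 8 of complex III, 3 of 17 of complex IV and 4 of 16 of complex V were called lower. Ndufb7 was at 13.2, 11.8, 18.2, 13.8 and 12.0 scaled TPM at 60 days and at 72.3, 56.0, 66.7, 59.9 and 62.3 at 1 day, with no overlap (-2.13 ± 0.15, adjusted p = 1.33e-05 by limma).

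Complex IV gave the next smallest p. Cox6a1 was at 45.9, 31.4, 45.8, 29.01 and 36.8 scaled TPM at 60 days and at 227, 170, 184, 153 and 151 at 1 day (-2.21 ± 0.18, adjusted p = 4.14e-05 by limma), again with no overlap. The complex I subunits Ndufb3 (-2.07), Ndufa1 (-2.30) and Ndufa3 (-1.72) and the ATP synthase subunit Atp5j2 (-2.35) followed. Larger fold changes rested in part on 1 library: cabergoline 60-day replicate 4 was listed at 0 for Ndufa2 (-3.56), for Atp5k (-3.29) and Atp5mpl (-3.20), small membrane subunits of ATP synthase, and for Cox5b (-2.90). Without that library their fold changes were -2.89, -2.58, -2.14 and -1.99, all still called.

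The 2 members called higher were Sdhb and mt-Nd6. Sdhb, the iron-sulfur subunit of complex II, was at 67.6, 86.2, 173, 73.4 and 54.2 scaled TPM at 60 days and at 51.5, 42.1, 43.9, 46.8 and 43.9 at 1 day (0.86 ± 0.27, adjusted p = 0.0449 by limma). The groups did not overlap, but the highest value was that of the muscle-rich replicate 3, and the call was lost when any of 7 of the 10 libraries was left out. mt-Nd6 was at 4796, 6108, 4326, 9375 and 1913 scaled TPM at 60 days and at 1473, 1323, 2310, 1061 and 980 at 1 day (1.78 ± 0.46, adjusted p = 0.0215), with replicate 5 at 60 days below replicate 3 at 1 day. Its call was lost without 1-day replicate 1, 2 or 4. The remaining 12 mitochondrial-encoded subunits were not called, and the medians were -0.08 for mitochondrial-encoded, -0.41 for nuclear and 0.08 for all genes. In untreated mice they were -1.49, -0.26 and 0.12.

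The direction between times depended on the scaling. The scaling factors over all 25 libraries were 0.264 to 0.937 at 1 day and 1.12 to 2.00 elsewhere, since Gm12895 and milk RNA fill so much of the 1-day totals. On TPM as deposited, 69 members were called higher and 0 lower at 60 days in untreated mice, and 60 higher and 8 lower in cabergoline-treated mice, against 0 and 6, and 2 and 22, with scaling. The median of all genes was 1.61 and 1.42 on TPM as deposited, against 0.12 and 0.08 with scaling. With quantile normalization the splits were 0 and 8, and 7 and 22, and with library quality weights 24 and 24, and 9 and 41. The fold changes are therefore relative to the typical gene of each library.

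A view that needs no scaling is each subunit's share of the summed nuclear subunits of its own library. That sum is made of the subunits themselves, so variation common to them cancels for them and not for other genes. The shares of all genes given here and in the next paragraph are therefore not a like-for-like chance level. In untreated mice, 15 of 81 subunits had every 60-day share below every 1-day share (against 0.834% of all genes measured in the same way) and 9 had every share above (against 1.88%). In cabergoline-treated mice these counts were 20 (against 4.7%) and 10 (against 10.4%). These comparisons share no library, and 13 subunits were lower in both (86.7% of the untreated list and 65.0% of the treated one, against 0.485% of all genes lower in both): Atp5e, Atp5j, Atp5j2, Atp5k, Atp5mpl, Cox5b, Ndufa13, Ndufa2, Ndufa5, Ndufb7, Ndufb8, Uqcr11 and Uqcrb. Another 7 were higher in both (77.8% and 70.0%, against 1.36% of all genes), among them Atp5a1, Sdhb and Uqcrc1. In treated mice alone the 10 higher of 81 lay near the share of all genes.

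The nulliparous libraries lay with the 60-day ones. Set against all 15 other libraries, the 10 libraries of 1 day had higher shares without overlap for 11 of 82 subunits (against 0.236% of all genes) and lower shares for 5 (against 0.88%). The 11 were the 13 above without Atp5j and Uqcrb, and the 5 included Atp5a1, Sdhb and Uqcrc1. Ndufb7 made up 0.112% to 0.331% of the nuclear subunits in nulliparous mice, 0.203% to 0.441% at 60 days and 0.825% to 1.14% at 1 day. Sdhb made up 1.15% to 1.68%, 1.29% to 2.34% and 0.516% to 1.07%. As with the mitochondrial ratios, these shares followed the set of animals, and time after weaning cannot be told apart from it.

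The subunits called lower at 60 days in cabergoline-treated mice had short annotated transcripts, which was less clear in untreated mice. Length here is the median over a gene's annotated protein-coding transcripts, and it may differ from that of the transcript expressed. For example, it was 533 bases for Uqcrc1 and 2413 bases for Ndufb2. The 21 nuclear subunits called lower in cabergoline-treated mice had a median spliced length of 540 bases, against 745 bases for the 59 not called and 1937 bases for all genes tested. Below 500 bases, 8 of 14 subunits were called lower (57.1%), against 11.9% of all genes of that length, and from 500 to 750 bases 11 of 35 (31.4%, against 16.5%). From 750 to 1000 bases the count was 1 of 14 (7.14%, against 16.5%), from 1000 to 2000 bases 1 of 15 (6.67%, against 14.0%) and above 2000 bases 0 of 3. In untreated mice the 6 called lower had a median of 624 bases, against 683 bases for the 75 not called, and 0 of 14 subunits below 500 bases were called.

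The median fold change rose over these classes in both comparisons. In cabergoline-treated mice it was -1.47, -0.79, -0.62, -0.01 and 0.44 from the shortest to the longest subunits, against -0.18, -0.03, -0.03, 0.05 and 0.14 in all genes of the same lengths. In untreated mice it was -1.06, -0.43, -0.25, 0.39 and 0.78, against -0.10, 0.03, 0.06, 0.11 and 0.15. By median, members of short annotated length were lower and the few of long annotated length higher. All genes moved in the same order but less. The part of transcript length in these calls was not tested, and expressed transcripts were not measured. The class above 2000 bases holds only 3 subunits, Ndufb2, Atp5a1 and Atp5g1.

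**Figure D5:**
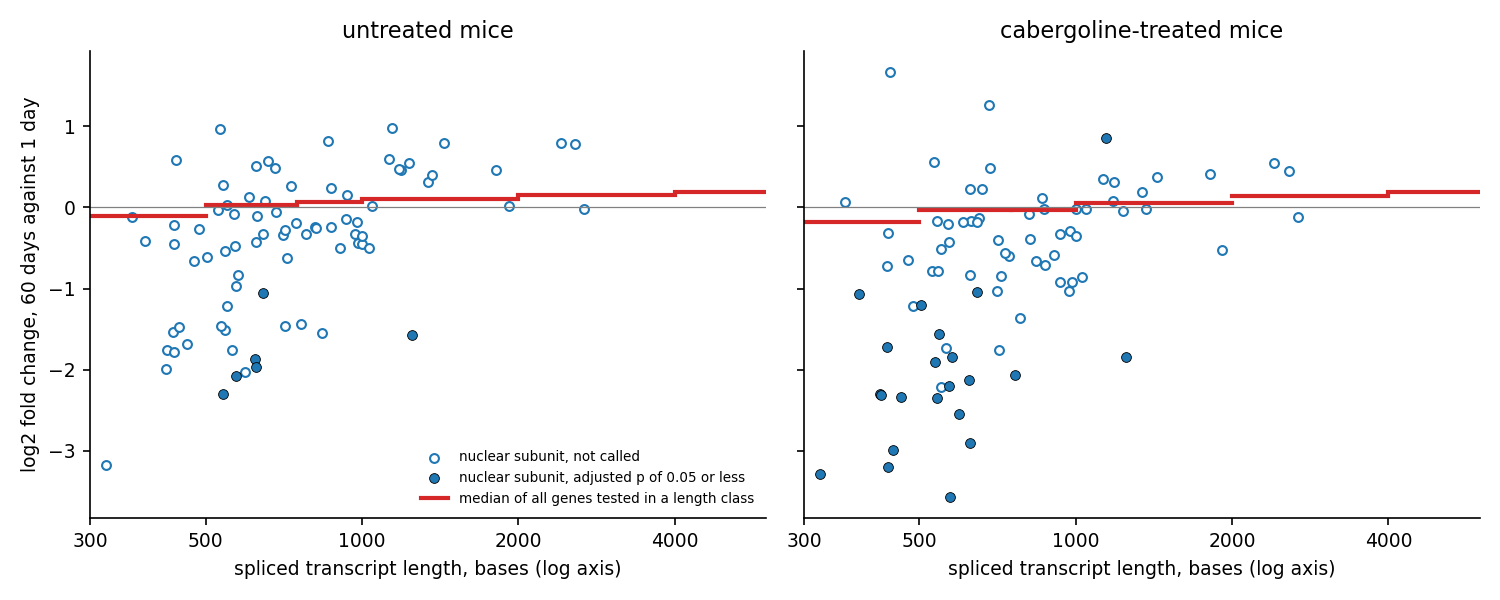
Log2 fold change between 60 days and 1 day (limma, scaled TPM plus 1) of the nuclear-encoded subunits against annotated spliced length (log axis). Untreated mice are on the left and cabergoline-treated mice on the right. Filled points have an adjusted p of 0.05 or less, and red steps give the median of all genes tested in each length class. Length is the median over a gene's annotated protein-coding transcripts. Below 500 bases the subunit medians are -1.06 and -1.47, while those of all genes are -0.10 and -0.18.

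Other mitochondrial genes gave few calls, nearly all of them between times in cabergoline-treated mice, where 9.14% of all genes were higher and 12.2% lower. Of 25 assembly factors of complexes III and IV, 7 were lower at 60 days, with Cox17, a copper chaperone, at -2.23 (-1.31 in untreated mice, where it was the only one called) and Uqcc3 at -1.01. Of 24 genes of mitochondrial biogenesis and mitochondrial DNA expression, 3 were higher and 1 lower, among them Polg, the mitochondrial DNA polymerase (1.23, adjusted p = 0.000787 by limma) and Grsf1, an RNA-binding protein of mitochondrial RNA granules (-0.80). Of 16 genes for cytochrome c and coenzyme Q, 2 were higher, Pdss2 (0.51) and Coq2 (0.69), both of coenzyme Q synthesis. Of 10 carriers and porins, 3 were lower, namely the uncoupling proteins Ucp3 (-5.44) and Ucp2 (-1.10) and the mitochondrial creatine kinase Ckmt1 (-2.18). None of 17 enzymes of the tricarboxylic acid cycle was called (3 at an unadjusted p of 0.05 or less), and of 20 glycolysis genes, which fill 21 entries of the table as Aldoa is listed at 2, 1 was higher and 5 lower. In the comparisons within a time and with nulliparous mice 0 genes of these 6 lists were called by limma, with 0 to 4 genes a list and comparison at an unadjusted p of 0.05 or less.

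Cell type markers moved between the same groups. In cabergoline-treated mice 13 of 14 milk protein genes and 14 of 20 epithelial markers were called lower at 60 days, and in untreated mice 0 of either by limma (10 and 3 at an unadjusted p of 0.05 or less), with medians of -6.72 and -2.23. Of 20 skeletal muscle markers 0 were called (2 at an unadjusted p of 0.05 or less) and 19 were positive in cabergoline-treated mice. There, limma also called 5 of 15 white adipocyte, 2 of 4 brown adipocyte, 3 of 11 macrophage and 3 of 11 B and plasma cell markers lower. It called 4 of 11 endothelial, 1 of 10 fibroblast and 1 of 5 red cell markers higher. However, 8 of the 11 B and plasma cell markers were positive (median 0.92). Macrophage markers were 5 positive and 6 negative (median -0.01). All 14 T cell markers were positive (median 1.55), with 0 called. Without the muscle-rich libraries, 38 members were called in cabergoline-treated mice (2 higher and 36 lower) and 5 lower in untreated mice, of which 1 was among the 6. The part of cell content in these calls was not tested.

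Among the remaining members, Cox7a2l, which helps join complexes III and IV, was the highest of the 14 factors at a mean of 72.7 TPM, and the others averaged 3.78 to 14.5 TPM. Of the 7 annotated pseudogenes, Cox6c2 and Atp5l2-ps were at 0 in every library. Ndufb4c, at a mean of 61.9 TPM, shared all its 31-base words with Ndufb4, so its reads cannot be told apart from those of Ndufb4. Of the words of Ndufb4, 19.1% were shared with Ndufb4c. Cox8c and 6 of the pseudogenes never passed the filter on low values, and Cox7b2 and Cox6b2 passed it in some comparisons only.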

How the data were processed

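The deposited values are TPM, made by the authors with Salmon on GRCm38 and held in 1 table of 34866 genes and 25 libraries. For the annotation release and strand setting, the sources used here give nothing. Symbols were joined by gene ID (34582 matched). The 13 mitochondrial and 104 nuclear genes and all lists were chosen with earlier results of these data known.

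TPM of each library were divided by the median of its ratios to the geometric mean taken over genes that reached 1 TPM throughout the fit. Genes that reached 1 TPM in 5 or more libraries entered limma 3.58.1 (R 4.3.3; lmFit and eBayes with trend) on log2(scaled TPM + 1), group only, with Benjamini-Hochberg adjustment over all genes at 0.05. The fit was tested on simulated data with independent normal noise for each gene. Those data held no outlier libraries and no differences in cell content, so the test does not cover them. A pseudocount of 1 understates changes of low genes. TPM keep no counts, so depth is unknown and no counting interval is given. Shares and ratios were taken on TPM as deposited, and they and list medians have no test.

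Named genes were all mitochondrial-encoded members, in each comparison the 6 called nuclear members of smallest p in each direction, the 2 of highest mean TPM in each complex, the tissue isoforms and, of other mitochondrial lists, the 2 called of smallest p or else the 2 of highest mean TPM. Genes beyond these were named after their values were seen. A gene that this rule names is not reported here. Transcript lengths and sequences came from GENCODE (GRCm38), promoters from RefSeq (GRCm38.p6). A length is the median over a gene's annotated protein-coding transcripts, or over all its transcripts where it has none. Python 3.11.15 and matplotlib 3.10.9 were used. Alternatives were other scalings, a pseudocount of 0.1, no filter, library weights, a fit over all 25 libraries, a replicate block and leaving out each library. Leaving out muscle-rich libraries and adding the chromosome 1 copies were chosen after seeing the data.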

Additional observations from a re-analysis of the deposited data

Results flagged for a closer look

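In 22 of 75 sets of 5 values examined, 1 library stood apart from the other 4 beyond Dixon's critical value of 0.71. Chance passes it in about 1 of 20 sets of normal values, which skewed TPM need not be. The sets are related quantities in the same 5 groups, so they are not separate tests. Untreated 1-day replicate 3 was the highest of its group in the mitochondrial share of TPM (6.39%), the nuclear sum (6443 TPM), mt-Nd6 (3238 TPM), mt-Nd1 (4968 TPM), mt-Co2 (1754 TPM), Ndufb7 (65.1 TPM), Atp5j2 (79.6 TPM), Cox6a2 (48.7 TPM), Cox7a1 (50.6 TPM) and Cox8b (81.5 TPM). It is also the library with the least milk RNA of the 1-day groups and muscle markers over 10000 TPM.

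Nulliparous replicate 1 was the highest of its group for mt-Nd6 (93520 TPM) and mt-Nd1 (13781 TPM). Untreated 60-day replicate 4 stood above its group for Ndufb7 (48.3 TPM) and Cox6a2 (153 TPM). Cabergoline 60-day replicate 3 did so for Ndufb7 (31.04 TPM), Sdhb (295 TPM), Cox6a2 (107 TPM) and Cox8b (110 TPM). Both are muscle-rich libraries. Cabergoline 1-day replicate 1 was the highest of its group for Cox6a2 (9.23 TPM) and Cox8b (13.1 TPM), at far lower muscle markers.

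The chromosome 1 copy held 2.45% of the mt-Co2 pair in untreated 60-day replicate 2 and 0.00111% in cabergoline 60-day replicate 4, below all others of their groups.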

How the results depend on the processing

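No member was called under any alternative in the comparisons of cabergoline with untreated mice, of either 60-day group with nulliparous mice, or of the interaction. On TPM as deposited the nuclear median at 1 day became 0.32. In untreated mice between times, 6 calls became 69 on TPM as deposited (medians 0.39 mitochondrial, 1.52 nuclear), 48 with library weights, 14 in the fit over all 25 libraries and 0 with a replicate block. Ndufa13 (0.14) and Ndufv3 (0.78) turned positive on TPM as deposited. Leaving out a library gave 1 to 8 calls: 1 without 1-day replicate 1, 4 or 5, and 3 without 60-day replicate 1, 3 or 4. In cabergoline-treated mice, 24 calls became 68 on TPM as deposited (medians 1.53 and 1.01), 50 with weights, and 18 to 38 leaving out a library, 38 without 60-day replicate 3, as without all muscle-rich libraries (an alternative chosen after seeing the data). The mitochondrial median became 1.17 with quantile normalization. With the median of log2(TPM + 1) in place of sums, the mitochondrial to nuclear ratio was 5.79 in nulliparous mice, 4.83 and 5.83 at 60 days, and 5.59 and 5.02 at 1 day. Beyond scaling, which moves all genes, the causes were not tested.

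Leaving out a library moved the mitochondrial median from -1.06 to 0.38 for untreated 60-day against nulliparous mice, from -0.21 to 0.95 for cabergoline-treated ones, from 0.14 to 1.23 for cabergoline at 60 days and from -0.31 to 0.15 between times with cabergoline. Same-numbered libraries correlated from -0.78 to 0.65 in their deviations, so the numbers showed no consistent pairing. Differences in cell content enter these correlations, which cannot exclude a pairing that the labels leave unstated. The replicate block gave 24 calls in cabergoline-treated mice, 23 of them the same genes. The unknown depth limits what can be said of members near 1 TPM.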
